A study of Mus musculus with 2 samples.

Results

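The mouse miRNAs from miR-6896 to miR-7094 form a run of late entries whose hairpins lie mostly inside protein-coding genes. Every 5p arm of that run present on the array was taken, by name alone, which gave 201 of the 1881 miRNAs measured. The samples were small RNA of exosomes, the vesicles that cells shed into their medium. They came from LLC, a line grown from the Lewis lung carcinoma of the mouse. The cells had spent 24 h without serum in 5 µM cisplatin, a drug that crosslinks DNA. All of it was 1 group of 2 samples from separate experiments, called array 1 and array 2 here, each on 1 one-colour Agilent array. No untreated cells, other dose or other cell line were analysed here, so the values describe which of these 5p arms gave signal, not a response to the drug.

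A mirtron is a short intron that folds into a hairpin. Splicing and debranching release it, so it does without the Drosha cut that frees most miRNA hairpins, and Dicer then cuts the loop away. The 5p arm of such a hairpin lies near the 5′ splice site and the 3p arm near the 3′ splice site, where introns end in AG after a stretch of C and U. Either arm may be loaded into an Argonaute protein, where bases 2 to 8, the seed, pair with target mRNAs.

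The RefSeq tables (build GRCm38.p6) held a mature sequence for 177 of the 201 5p arms, and for 20 of the 21 that were detected on both arrays. The sequences below belong to the arms on which the values turn: the brightest, those farthest apart between the arrays, and those in which 1 probe carried the signal. The seed is in capitals, and each is written 5′ to 3′.
miR-7036a-5p: aGCGGGGUucgguggggaagaga
miR-7047-5p: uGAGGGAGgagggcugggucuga
miR-6969-5p: cAGCAGAGuagggagcaaaaga
miR-6931-5p: uGGGGUGGggagugggggacu
miR-7005-5p: cCUGGGGAugggaggaccagca
miR-6937-5p: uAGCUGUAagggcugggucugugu
miR-6908-5p: uUGCCUGUcagggagagcccca
miR-7082-5p: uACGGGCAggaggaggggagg
miR-6944-5p: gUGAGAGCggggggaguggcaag
miR-6939-5p: cAGGCAGCugguugguggaag
miR-6912-5p: uACAGGGAgggugcucaggcag
miR-6987-5p: uGGGACAGggugacagggugag
Most are rich in G. The exceptions in this selection are miR-6908-5p, with 31.8% G, and miR-6969-5p, with 36.4%.

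Each array carried 6030 spots for these 5p arms, from 412 probes, with 2 probes for 191 arms and 3 for 10, and 10 to 15 spots per probe. No spot was saturated. The files give no probe sequence, and brightness depends on the probe, so a brighter arm need not be a more abundant one. Array 1 was the brighter array: scaling to the 75th percentile of the detected miRNAs removed 1.71 log2 units, whereas the 4 spike-in controls above the negative-control limit differed by 0.06 to 0.17. Of 16 miRNAs typical of epithelium, blood cells, muscle, neurons or hepatocytes, 0 were detected on both arrays, and miR-142a-3p of leukocytes was detected on array 1 only. Of 4 tumour-associated miRNAs, 3 were detected on both, with miR-21a-5p at 8.16 and 6.34 on arrays 1 and 2. Over all miRNAs the share detected on both arrays was 10.7%, and lists this short do not show where the RNA came from. An arm counts as detected when the total signal of at least 1 of its probes exceeded 3 times the error that the scanner software gives for it.

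Detection was about as common among these 5p arms as on the whole array. On both arrays 21 of the 201 were detected (10.4%), against 10.7% of all miRNAs. A share this near the background is no result about the arms as a set. On array 1 alone the count was 34 (16.9%), against 16.6% of all miRNAs, and on array 2 it was 21 (10.4%), against 10.7%. All 21 arms seen on array 2 were also seen on array 1, and 13 were seen on array 1 only. The other 167 were detected on neither array. When most spots of an arm had to be well above background on both arrays, 11 arms remained, all among the 21, and 4.68% of all miRNAs passed. When detection on at least 1 array was enough, 34 arms passed (16.9%), against 16.6% of all miRNAs. A mean intensity more than 3 SD above that of the negative controls was met by 18 arms (8.96%), against 8.72% of all miRNAs. A listed total over 6 times its error was met by 16 (7.96%), against 7.92%. In all, 34 arms (16.9%) lay above the lowest value on both arrays in the authors' deposited table, against 14.5% of all miRNAs. Shares this near the background are likewise no result about the arms.

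Among the 21, 6 arms had every spot well above background on both arrays, as did 42 of all 1881 miRNAs (2.23%). A count this near the background is no result about the arms as a set. The 6 were miR-7042-5p, miR-7036a-5p, miR-7047-5p, miR-6969-5p, miR-6931-5p and miR-7005-5p. Their log2 signals before scaling lay between 7.997 and 9.14 on array 1 and between 6.26 and 7.62 on array 2. The other 15 lay between 2.39 and 6.02 on array 1 and between 2.51 and 4.84 on array 2. These ranges did not overlap, but the sets were split by spot signal, so a gap between them is partly built in. The gap also rests on the mean over probes. On array 2 the brighter probe of miR-6937-5p, 1 of the 15, read 6.78, against 6.51 and 6.31 for the probes of miR-6969-5p. By scaled signal the 6 held ranks 11, 13, 14, 15, 16 and 21 among the 201 miRNAs detected on both arrays.

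miR-7042-5p had the highest mean signal, with log2 values of 9.14 on array 1 and 7.55 on array 2, a 2.999-fold difference. Scaling brought the arrays to within 0.13, and the scaled signal was 8.35 ± 0.09 (SD, n = 2). Its probes lay 1.84 apart on array 1 and 1.77 on array 2, while spots of one probe had a median SD of 0.06 and 0.07. The gap between its probes was thus far larger than the spread between spots and was alike on both arrays.

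miR-7036a-5p read 8.05 on array 1 and 7.62 on array 2, the smallest drop of the 6. After scaling it was the only one of them that lay over 2-fold apart, at 7.83 ± 0.91 (SD, n = 2) and higher on array 2. Its probes lay within 0.26 of each other on both arrays. The arm maps to chr5:137296661-137296683 on the minus strand, within Srrt, which encodes ARS2, an RNA-binding protein that takes part in processing of primary miRNAs.

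miR-7047-5p gave 8.11 on array 1 and 7.05 on array 2, and 7.58 ± 0.47 after scaling (SD, n = 2). Its probes were the most discordant of the 6. They read 7.04 and 9.17 on array 1 and 5.86 and 8.25 on array 2.

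miR-6969-5p read 8.60 on array 1 and 6.41 on array 2, the largest drop of the 6 at 4.57-fold. Its scaled signal was 7.51 ± 0.34 (SD, n = 2), with the difference between the arrays reduced from 2.19 to 0.48. The probes agreed to within 0.21 on both arrays. It lies at chr17:28558475-28558496 on the minus strand within Clps, which encodes colipase, a cofactor of pancreatic lipase.

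miR-6931-5p had 7.997 and 6.84 on arrays 1 and 2, and 7.42 ± 0.39 after scaling (SD, n = 2). With 66.7% G it was among the most G-rich arms, and it maps to chr11:102999896-102999916 on the minus strand within Dcakd. For miR-7005-5p the values were 8.03 and 6.26, and the scaled signal of 7.15 ± 0.04 (SD, n = 2) had the smallest spread of the 6. Its probes lay 1.85 apart on array 1 and 1.72 on array 2. It maps to chr2:180179797-180179818 on the minus strand within Lama5, the gene of the laminin alpha 5 chain of basement membranes.

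**Figure D1:**
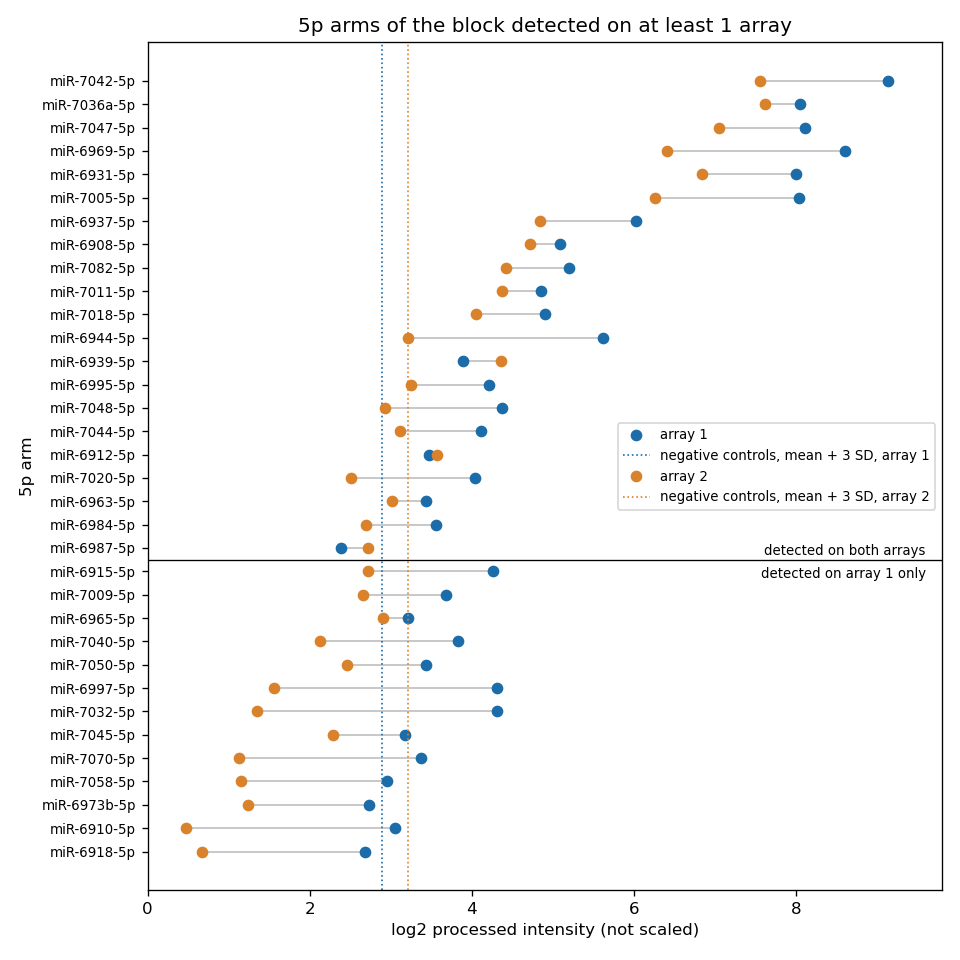
Log2 processed intensity before scaling (x axis) of the 34 5p arms detected on at least 1 array (y axis), ordered by mean scaled signal within each detection class. Blue points are array 1, orange points array 2, grey lines join the values of one arm, and dotted lines mark the mean of the negative-control spots plus 3 SD, at 2.89 and 3.21. The 6 uppermost arms lie above 6 on both arrays, and 3 of the 21 arms detected on both arrays have the orange point to the right of the blue one.

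The dimmer 15 came close to the background. The limit set by the negative-control spots, their mean plus 3 SD, corresponded to a log2 signal of 2.89 on array 1 and 3.21 on array 2. On array 1 only miR-6987-5p lay below it, and on array 2 it was joined by miR-7048-5p, miR-7044-5p, miR-7020-5p, miR-6963-5p and miR-6984-5p. These levels are means of log2 values over probes. On array 2 the brighter probe of miR-7020-5p read 4.22 and that of miR-7044-5p 3.95, above the limit. Both arms and miR-6987-5p were among the 18 whose mean intensity exceeded that of the negative controls by 3 SD. All probes of an arm were detected in 19 of the 21 on array 1 and in 13 of the 21 on array 2.

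In some of the 15 a single probe made the call. miR-6937-5p, which maps to chr12:28679325-28679348 within Adi1, a gene of the methionine salvage pathway, read 6.02 on array 1 and 4.84 on array 2. One probe gave 7.83 and 6.78, with every spot well above background, and the other gave 4.21 and 2.91 and was not detected on array 2. For miR-6987-5p the contrast was stronger. One probe read 4.499 and 4.99 with all spots well above background, and the other 0.28 and 0.46, at the level of the undetected arms. Its mean over probes, 2.39 and 2.72, therefore describes neither probe.

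In other dim arms both probes were detected on both arrays, though not always at like levels. miR-7082-5p, within Raver1, read 5.20 and 4.42 on arrays 1 and 2, with probes no more than 0.31 apart. miR-7011-5p, within the semaphorin gene Sema4a, read 4.85 and 4.37. miR-7018-5p, within Hspg2, which encodes the matrix proteoglycan perlecan, read 4.91 and 4.06. For miR-6908-5p, within the pyridoxal kinase gene Pdxk, the values were 5.08 and 4.72, and its scaled signal was 4.90 ± 0.96 (SD, n = 2).

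Before scaling 18 of the 21 arms were brighter on array 1, and after scaling 3 were. Over all 201 miRNAs detected on both arrays the counts were 175 and 50. The direction between the arrays thus rests on the scaling, in the arms as over all detected miRNAs. The median unscaled difference, array 1 minus array 2, was 0.96 with quartiles of 0.43 and 1.44, and it was 0.78 over all 201 miRNAs detected on both arrays. The difference was 0.43 to 2.19 in the 6 bright arms, with a median of 1.37, and ran from -0.47 to 2.41 in the other 15, with a median of 0.85. Of the 21 arms, 7 lay over 2-fold apart after scaling (33.3%), against 48.8% of all miRNAs detected on both arrays. Signals on array 1 and array 2 correlated across the 21 arms with r = 0.931 (Pearson) and rho = 0.856 (Spearman), a description over arms that share the same libraries.

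The 5 arms farthest apart after scaling differed little before it, by -0.47 to 0.42. miR-6939-5p, within the gene of the kinase Akt1, read 3.89 on array 1 and 4.36 on array 2, which scaling widened to a difference of -2.18. miR-6987-5p followed at -2.05 and miR-6912-5p, with 3.47 and 3.57, at -1.82. For miR-6908-5p the scaled difference was -1.35, and for miR-6963-5p, within the fibronectin receptor gene Itga5, it was -1.29. In the opposite direction stood miR-6944-5p, within the drebrin gene Dbn1. It read 5.62 on array 1 and 3.21 on array 2, a 5.31-fold drop that was the largest of the 21. After scaling it was still 0.70 higher on array 1. Its array 2 value lay at the negative-control limit of 3.21. There 1 of its 2 probes was detected and 6.67% of its spots were well above background, so the size of the drop rests on a value at background. miR-6995-5p (4.21 and 3.25) and miR-7048-5p (4.37 and 2.93) lay in between.

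**Figure D2:**
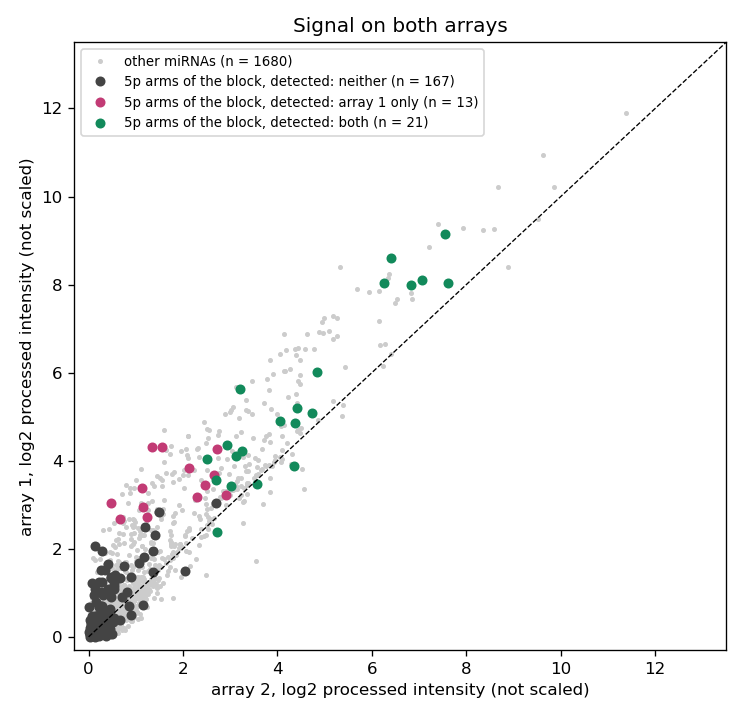
Log2 processed intensity before scaling of all 1881 miRNAs on array 2 (x axis) and array 1 (y axis), with a dashed line of equal signal. Green, pink and dark points are the 5p arms detected on both arrays (21), on array 1 only (13) and on neither (167), and light grey points are the other miRNAs. The green points lie between 2.39 and 9.14 on array 1 and between 2.51 and 7.62 on array 2, within the wider range of the grey ones. Of the 21, 18 lie above the line, as do 175 of all 201 miRNAs detected on both arrays.

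The 13 arms seen on array 1 only had log2 signals of 2.68 to 4.31 there and of 0.47 to 2.91 on array 2. The 3 with the highest scaled signal were miR-6915-5p (4.27 and 2.71), miR-7009-5p (3.68 and 2.65) and miR-6965-5p (3.21 and 2.91). Their best probes on array 2 had totals of 2.83, 2.70 and 2.74 times the error, just short of the required 3. Over all 13 arms the best probe on array 2 ranged from 0.14 to 2.93 times its error, so not all were near misses. Of the 167 undetected arms, 137 had a log2 signal under 1 on array 1 and 157 on array 2, and the medians were 0.29 and 0.24. The brightest of them was miR-7025-5p, with 3.04 and 2.71, whose best probe reached 2.96 times its error on array 1. miR-6974-5p (2.83 and 1.49) and miR-6898-5p (2.32 and 1.40) came next.

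As a class the 5p arms were G-rich, and the detected ones more so. The median share of G was 43.5% over the 177 arms with a sequence, against 26.1% over 1256 matched miRNAs outside the block and 14.3% over 175 matched 3p arms of the same numbers. In the 20 detected on both arrays the median was 54.4% (range 31.8% to 66.7%), in 12 detected on array 1 only 50%, and in 145 detected on neither 42.9%. The difference between the first and the last was 11.5 percentage points, and it was 8.23 when detection on array 1 alone was used. Median lengths were 22.5, 23 and 22 bases, so the classes hardly differed in length.

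Detection was more frequent at higher G content, both in the block and outside it. Of arms with at least 50% G, 12 of 55 were detected on both arrays (21.8%), and of those under 50%, 8 of 122 (6.56%). Outside the block these shares were 17 of 62 (27.4%) and 118 of 1194 (9.88%). At 60% G or more, 5 of 7 arms were detected: miR-6931-5p, miR-7044-5p, miR-7082-5p, miR-7011-5p and miR-6944-5p. The remaining ones were miR-7045-5p, with 66.7% G and seen on array 1 only, and miR-6968-5p, with 63.6% G and log2 signals of 0 and 0.14. Outside the block 6 of 9 miRNAs this rich in G were detected. Below 30% G, 0 of 8 arms were detected, against 61 of 781 (7.81%) outside, and 8 arms are too few to read a difference from. Between 40% and 50% the count was 5 of 66 (7.58%), against 27 of 132 (20.5%) outside. Across the 20 detected arms with a sequence, G content and scaled signal had r = 0.046 (Pearson) and rho = 0.092 (Spearman). Among detected arms the G-rich ones were thus not the brighter ones. The part of G content in the signal was not tested.

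**Figure D3:**
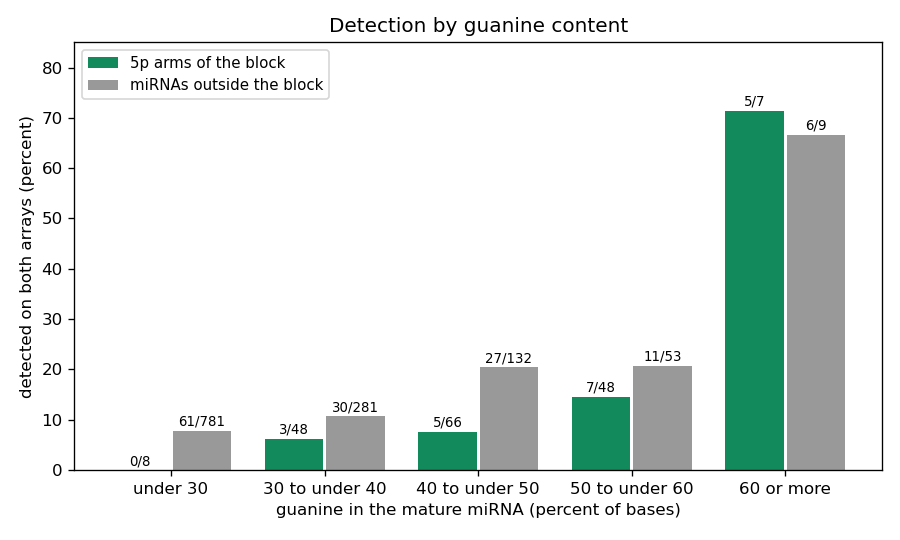
Percent of miRNAs detected on both arrays (y axis) by the share of G in the mature sequence (x axis), for the 5p arms of the block (green) and for miRNAs outside the block (grey), with the counts above each bar. In both sets the bar at 60% G or more is the highest, at 71.4% and 66.7%, and the bars rest on 7 and 9 miRNAs.

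Short motifs were counted on the miRNA strand. GGAG is known as a motif that the RNA-binding protein hnRNPA2B1 recognises in miRNAs sorted into exosomes. It was present in 82 of 177 arms (46.3%), against 14.4% of all 1608 matched miRNAs. Of the 20 detected arms 13 held it (65%), and of the 145 undetected ones 61 (42.1%). Outside the block 28 of 135 detected miRNAs held it (20.7%). Since GGAG is itself mostly G, the counts were split by G content. At 50% G or more, 7 of 33 arms with GGAG (21.2%) and 5 of 22 without it (22.7%) were detected. Outside the block these shares were 8 of 29 (27.6%) and 9 of 33 (27.3%). Under 50% G it was 6 of 49 arms (12.2%) and 2 of 73 (2.74%) in the block, and 20 of 120 (16.7%) and 98 of 1074 (9.12%) outside, the same order in both. This class does not hold G content fixed. Within it, detection outside the block went from 7.81% below 30% G to 20.5% between 40% and 50%. Among the 6 brightest arms 5 had a sequence, and 4 of them held GGAG, miR-7036a-5p being the exception.

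The other motifs showed smaller or opposite differences. GGCU, known from miRNAs that SYNCRIP binds in vesicles of hepatocytes, was present in 3 of the 20 detected arms (15%) and 34 of the 145 undetected ones (23.4%). GGGG was present in 8 of the 20 (40%) and 52 of the 145 (35.9%), against 11.3% of all matched miRNAs. CCCU was present in 0 of the 20 and in 2 of all 177 arms, and CGGGAG in 0 and 2. A match to these letters is a description and says nothing of binding.

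The seeds were diverse. The 20 detected arms had 20 distinct seeds, so no seed was shared within the set. The bright miR-7047-5p shared its seed, GAGGGAG, with miR-6965-5p, which was seen on array 1 only. Another miRNA of this seed, miR-3103-5p, was detected on neither array, with log2 signals of 0.13 and 0.60.
miR-7047-5p: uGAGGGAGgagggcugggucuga
miR-6965-5p: aGAGGGAGgcuauugggcaggaga
miR-3103-5p: gGAGGGAGgaucugcuguuag
miR-7005-5p shared its seed, CUGGGGA, with miR-6975-5p, an undetected arm of the same block that read 0.17 and 0.20. Arms of one seed thus differed in detection.

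Some detected arms shared longer stretches with another miRNA, which is shown because related sequences can bind each other's probes. Of the 20 arms, 8 had a common stretch of at least 11 bases with some other matched miRNA, in 11 pairs counted from the arms' side. The other miRNA was detected on both arrays in 4 of the 11, on array 1 only in 1 and on neither in 6. The pair of miR-7047-5p and miR-6937-5p enters these counts from both sides. Over all miRNAs 10.7% were detected on both arrays, and 11 pairs are too few to read a difference from. In the pairs below, with both miRNAs detected on both arrays, the shared stretch, in capitals, lies in the 3′ part.
miR-7036a-5p: agcgggguucGGUGGGGAAGAGa
miR-6769b-5p: ccuggugGGUGGGGAAGAGc
miR-7047-5p: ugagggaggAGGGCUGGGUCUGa
miR-6937-5p: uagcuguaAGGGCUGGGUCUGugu
miR-6769b-5p, at chr8:71631083-71631102 and outside the block, read 9.48 on array 1 and 9.52 on array 2. It and miR-7036a-5p have 12 bases in common that end 1 base before the 3′ end of either, and the unscaled differences between the arrays were 0.43 in miR-7036a-5p and -0.03 in miR-6769b-5p. miR-7047-5p and miR-6937-5p have 13 bases in common, with differences of 1.05 and 1.18. Whether the probes of one picked up the other was not tested.

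In other pairs the second miRNA was undetected, and the sequences of 3 of these 6 are given here, chosen after their values were seen. miR-7005-5p has its first 13 bases in common with miR-23a-5p, which was at the floor with log2 signals of 0 and 0.01. miR-6942-5p, which shares 12 bases with miR-7082-5p, read 0.39 and 0.04. miR-6914-5p, which shares 12 with miR-7044-5p, read 0.08 and 0.15.
miR-7005-5p: CCUGGGGAUGGGAggaccagca
miR-23a-5p: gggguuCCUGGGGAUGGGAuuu
miR-7082-5p: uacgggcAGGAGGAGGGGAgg
miR-6942-5p: uAGGAGGAGGGGAacauuugc
miR-7044-5p: guguGGUGGUGGUGGCggc
miR-6914-5p: uccuggGGUGGUGGUGGCcacaga
The capitals are followed by 9 bases in miR-7005-5p and 3 in miR-23a-5p. They are followed by 2 in miR-7082-5p and 8 in miR-6942-5p, and by 3 in miR-7044-5p and 6 in miR-6914-5p. Among the pairs not shown, miR-6937-5p and the undetected miR-760-3p share 11 bases, with 1 and 4 bases after them. miR-7047-5p and miR-298-5p, detected on both arrays, share 11 bases with 7 and 8 after them.

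In the block 2 pairs of arms share a number and differ by a letter, each arm with its own probes. miR-7036a-5p gave 8.05 and 7.62 and was detected on both arrays, whereas miR-7036b-5p read 0.42 and 0.32 and was detected on neither. miR-6973b-5p was seen on array 1 only, with 2.73 and 1.24 and 1 of its 2 probes detected there. Its mean over probes on array 1 lay below the negative-control limit of 2.89, while the detected probe read 3.74. miR-6973a-5p was seen on neither, with 1.02 and 0.26, so the arms of this pair were both at or near background.
miR-7036a-5p: aGCGGGGUucgguggggaagaga
miR-7036b-5p: aCGCGGGGuucucuguggaagc

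Few 3p arms of the block were detected on both arrays, 15 of 199 (7.54%), and 1 of these together with its 5p arm. With so few arms of either kind detected, that count is no result about the pairing of arms. Of 198 hairpins with both arms on the array, 20 had only their 5p arm detected on both arrays, 14 only their 3p arm, 1 both and 163 neither. Among 525 paired hairpins outside the block the counts were 40, 42, 9 and 434. These counts depend on the rule: when most spots had to be well above background, 11 hairpins had the 5p arm alone and 1 the 3p arm alone, and with a listed total over 6 times its error the counts were 16 and 4. For the 19 detected 5p arms whose 3p partner was detected on neither array, the mean signal of the 3p arm was 0.06 to 2.51, with a median of 0.75.

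The detected 3p arms had another pattern than the 5p arms. All 15 were dim, between 3.21 and 4.64 on array 1 and between 3.07 and 4.49 on array 2, and their unscaled differences were small, with a median of 0.27 and a range of -0.01 to 0.76. Scaling therefore put 14 of the 15 over 2-fold apart, against 7 of the 21 5p arms. The 3p arm with the highest mean was miR-7022-3p, at 4.64 and 4.49, whose 5p arm read 0.50 and 0.90. miR-7047 was the one hairpin with both arms detected, miR-7047-3p reading 4.14 and 3.37. miR-7082-3p, the partner of a detected 5p arm, was seen on array 1 only, at 3.39 against 0.88. The hairpin of miR-7022 is shown with its annotated arms in capitals, since it holds the 3p arm with the highest mean.
Mir7022 hairpin, chr4:148146936-148146996, minus strand: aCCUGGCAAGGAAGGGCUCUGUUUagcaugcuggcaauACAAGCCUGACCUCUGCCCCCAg
The 5p arm of miR-7047 has 56.5% G and its 3p arm 0%.

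**Figure D4:**
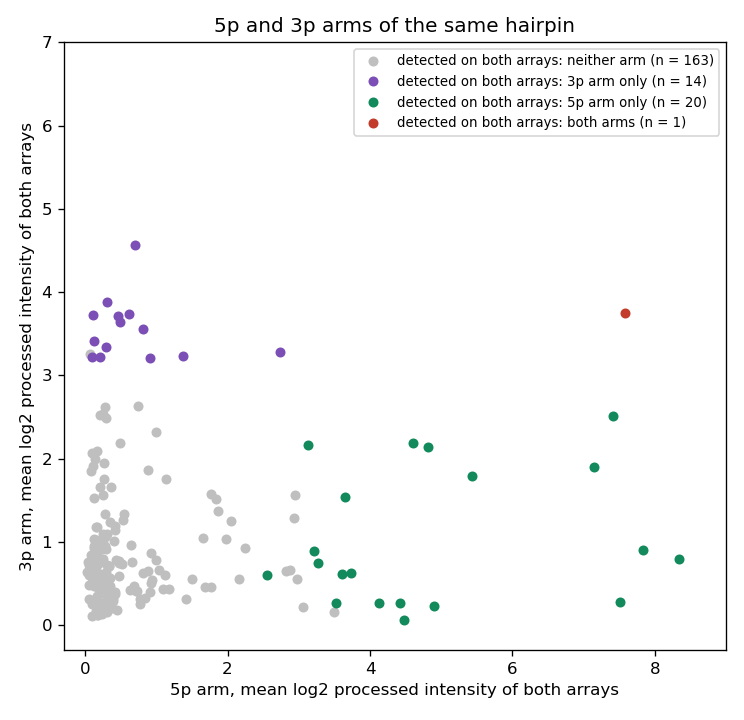
Mean log2 processed intensity of both arrays for the 5p arm (x axis) and the 3p arm (y axis) of 198 hairpins with both arms on the array, coloured by which arm was detected on both arrays. The 20 green hairpins (5p arm alone) extend along the x axis beyond 8, the 14 purple ones (3p arm alone) lie between 3 and 5 on the y axis, and the single red point is miR-7047. The arms have different probes, so the axes are not on a common scale of amount.

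Nearly all of the arms lay inside genes. Of the 177 arms with a sequence, 176 lay within the span of a protein-coding RefSeq gene, 155 of them with a gene on the same strand. The rest of the 176 lay in genes whose strand was not listed. The share inside genes was not taken for miRNAs outside the block. Of 172 with a hairpin entry, 159 hairpins ended in AG, and 77.7% of the block's 3p arms ended in AG, against 11.2% of 500 other 3p arms. All 20 detected arms with a sequence lay within a gene, each in a different one, 16 on the same strand and 4 in genes whose strand was not listed, and all 20 hairpins ended in AG. Exon and intron borders were not used here, so it was not determined whether a given hairpin fills its intron. The array measured no mRNA, and the level of the host genes is not known from these data.

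Other known mouse mirtrons were detected in part. Of 10 arms of miR-877, miR-1224, miR-702, miR-1981 and miR-3102, 5 were detected on both arrays, against 10.7% of all miRNAs. miR-1224-5p was the brightest of them, at 10.21 and 9.85, with 61.9% G, while miR-1224-3p read 1.11 and 0.98. For miR-877 and miR-702 it was the 3p arm that was detected, at 4.57 and 4.09 for miR-877-3p and 4.25 and 4.09 for miR-702-3p, although their 5p arms had 55% and 57.1% G. miR-3102 had both arms detected, and miR-1981 none.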

How the data were processed

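Levels were taken from the deposited scanner files, which hold spot intensities made with Agilent Feature Extraction 10.7.1.1, background-subtracted with spatial detrending and not normalized between arrays, per the file headers and the submitters' processing notes. Per the labels' protocols 0.5 µg of RNA was labelled with Cy3 by a kit named for cRNA, whereas the headers name a miRNA protocol. The authors' deposited value table is on a log2 scale inferred from its values, both columns hold the same sorted values, and its centring is not stated. It served as an alternative.

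Population outlier spots were left out (60 and 94 of the arms' spots on arrays 1 and 2). Intensities under 1 were set to 1, and log2 values were averaged over spots and then probes. For scaling, each array's 75th percentile over miRNAs detected on both arrays was subtracted and the mean of both percentiles added back. An SD is that between the 2 arrays. With 1 group no test was possible and no p-value was computed.

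The text names the 15 brightest and 5 farthest-apart detected arms, arms sharing a seed with these, hairpins with both arms detected, and 3 arms each of those seen on 1 array or none. Other names (partners in shared stretches, lettered pairs, arms at 60% G or more, miR-7020-5p, miR-7044-5p, miR-6984-5p, miR-7022-3p and miR-7082-3p) were chosen after their values were seen. Members and lists were chosen with earlier results of these data known. Python 3.11.15, pandas 2.3.3 and, for normexp, limma 3.58.1 in R 4.3.3 were used. The level, scaling and 2-fold steps were tested on simulated arrays with a constant shift between the arrays and no background. A shift that varies with brightness was not covered by that test.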

Additional observations from a re-analysis of the deposited data

Results flagged for a closer look

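Spots set aside as population outliers held some signal that the levels do not use. On array 1, 18 of the 60 outlier spots of these 5p arms exceeded the negative-control limit, and on array 2 17 of 94 did. They belonged to 14 arms on array 1 and 10 on array 2. Spots of arms detected on neither array made up 6 of the 18 and 3 of the 17. With the outlier spots kept, the median scaled signal of the 21 detected arms stayed at 4.48 and the number over 2-fold apart at 7.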

How the results depend on the processing

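The 21 arms detected on both arrays became 11 with the majority of spots well above background and 34 with detection on at least 1 array. They numbered 18 when the mean intensity had to exceed that of the negative controls by 3 SD (8.72% of all miRNAs) and 16 with a listed total over 6 times its error (7.92%), shares near the background. Leaving out 1 array gave 21 to 34, the higher number without array 2. The 20 hairpins with the 5p arm alone became 11 under the majority rule, where the 14 with the 3p arm alone became 1, and 20 to 30 with 1 array left out. The G difference of 11.5 points became 8.23 with at least 1 array and 8.23 to 10.9 with 1 array left out. The median scaled signal of 4.48 became 6.40 with normexp and an offset of 50, 3.30 in the authors' deposited table and 3.39 with the sum of detected probes (added once the data had been seen), scales that differ by construction, and 4.05 to 5.21 with 1 array left out. The 7 arms over 2-fold apart became 0 with normexp, whose offset draws low signals together, and 4 with quantile normalization. The cause of the other changes was not tested. The unscaled difference kept its sign under every alternative run for it. Keeping outlier spots was not run for detection, since the flag is the scanner software's own. No paired analysis was possible because there is 1 group. Of the 21 arms, 1 on array 1 and 6 on array 2 had a level, as a mean over probes, under the negative-control limit.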

Other observations

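A gap of over 1% separated the listed total of an arm in the scanner files and the summed signal of its detected probes for 6 of the 34 arms detected on array 1 and 7 of the 21 on array 2, among them miR-6987-5p and miR-7020-5p on both. The listed totals of these arms were therefore not used as levels.

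Of the 201 arms, 34 had in the authors' deposited table a value above the lowest one, -3.32, on both arrays (16.9%), against 272 of all 1881 miRNAs (14.5%), a share near the background, and the 21 arms detected on both arrays were all among them. The table placed miR-7042-5p at 8.13 and 7.51, miR-7036a-5p at 5.84 and 7.18, and miR-6939-5p at 2.23 and 3.56 on arrays 1 and 2.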
